A study of Homo sapiens with 9 samples.

Results

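In PC3 cells grown with mouse osteoblasts (OB), 104 genes had a higher signal than in untreated PC3 cells. They lay higher on every one of the 7 co-culture arrays than on either of the 2 arrays of untreated cells. A gene was a member when its lowest co-culture value exceeded its highest untreated value by at least 0.4 on the log2 scale, a distance called the gap here. The value of a gene was that of its brightest probe set, ranked by the mean of the 9 arrays, among probe sets with 1 gene symbol. Of 19775 genes measured in this way, 111 met the rule, or 0.561%. IGFBP5, ND6, LINC00261, ADARB1, PCDH18, TENT5C, ZEB1, IL33, MYH10 and PALMD were left out because they are described elsewhere, and 7 of these 10 met the rule, so 104 members remained. Because the measured values chose the members, every co-culture minus untreated value of a member is a description and carries no test.

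PC3 is a human prostate cancer cell line derived from a bone metastasis. RNA was taken after 48 h from PC3 cells with calvarial osteoblasts of Sost knockout mice (OB SostKO, 2 arrays), with wild type mouse osteoblasts and 100 ng/ml recombinant human DKK1 (OB WT + rhDKK1, 2 arrays), with wild type mouse osteoblasts and 100 ng/ml recombinant human SOST (OB WT + rhSOST, 3 arrays), and from PC3 cells cultured alone (untreated PC3, 2 arrays). Wild type mice were C57BL/6, and the substrain is not settled by the sources used here. The inserts that carried the osteoblasts were placed into the wells of PC3 cells, all cells received fresh medium at the start, and the labels name the arrays of a group biological replicates. Every co-culture held mouse osteoblasts, and the labels name no added protein for OB SostKO. No array analysed here held wild type osteoblasts without an added protein or a recombinant protein without osteoblasts. In comparisons with OB SostKO the Sost genotype and the added protein therefore cannot be told apart. By their labels, OB WT + rhDKK1 and OB WT + rhSOST share the wild type genotype and differ in the added protein. Values are log2 intensities normalized by RMA (robust multi-array average), and their precision is limited by the number of arrays.

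Prostate cancer that spreads to bone meets osteoblasts, the cells that lay down bone matrix and that release growth factors and Wnt ligands. Sclerostin, the product of Sost, and DKK1 are secreted proteins that bind the LRP5 and LRP6 coreceptors and limit canonical Wnt signaling, in which beta-catenin joins TCF/LEF proteins to switch on target genes. In PC3 cells, however, the paper reports that rhDKK1 first lowered a Wnt reporter and later raised it. It also reports more active beta-catenin with rhDKK1. The paper compared the 3 co-cultures with PC3 cells alone. It looked for changes shared by OB SostKO and OB WT + rhDKK1, which it treated as highly invasive conditions. The 104 members are genes that stood above untreated cells in all 3 co-cultures.

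The untreated arrays also differed from the co-culture arrays in control measurements. The spiked poly-A control probe sets averaged 6.38 to 7.22 on the co-culture arrays and 10.99 and 11.66 on the untreated arrays, and the hybridization controls averaged 10.32 to 10.60 and 11.35 and 10.66 in the same order. The 3' minus 5' difference of ACTB, a sign of how complete the labeled RNA was, lay between 0.99 and 2.06 on the co-culture arrays and was 0.50 and 0.88 on the untreated arrays, while that of GAPDH overlapped (0.12 to 0.42 and 0.15 and 0.24). Array medians were 5.45 to 5.52. The part of these differences in the members' values was not tested, and batch and group cannot be told apart here. PC3 cells carried the epithelial markers EPCAM (13.23 ± 0.06 in co-culture, SD, n = 7, and 13.21 ± 0.04 in untreated cells, SD, n = 2) and KRT18 (13.34 ± 0.07 and 13.15 ± 0.11). Of 10 measured epithelial markers, 1 had all 7 co-culture arrays above both untreated arrays. Another 4 had all 7 below both, namely KRT7, ELF3, CLDN4 and CLDN7, and the median difference of the 10 was -0.07. Of 18 measured osteoblast and fibroblast markers, 4 lay below the 40th percentile of every array (COL1A2, SPP1, POSTN and LUM). Others were bright both in co-culture and in untreated cells, among them COL6A3 (11.62 and 11.52), CDH11 (11.02 and 10.61), COL1A1 (9.19 and 9.03) and RUNX2 (8.98 and 8.89). Of these named genes, only CDH11 lay higher on all 7 co-culture arrays than on either untreated array, by at least 0.34. The log2 of the summed level of all 18 was 12.61 to 12.91 in co-culture and 12.68 and 12.56 in untreated cells.

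**Figure D1:**
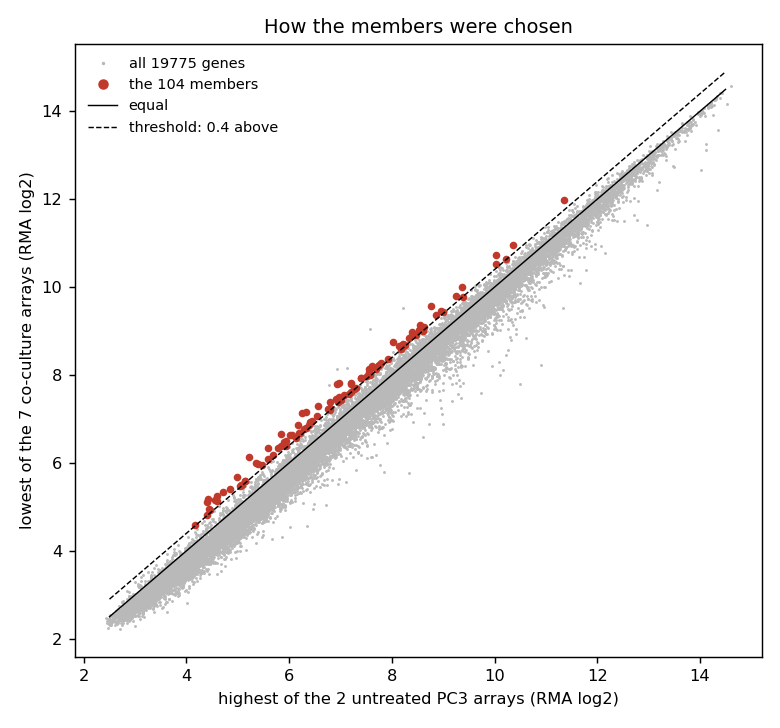
Each point is a gene, with the highest of its 2 untreated PC3 values on the x axis and the lowest of its 7 co-culture values on the y axis, both as RMA log2 intensity. The 104 members lie on or above the dashed line of 0.4, gray points above it are the 7 genes left out, and the members run over most of the intensity range.

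The members were spread over most of the range of expression. Their mean in untreated cells lay between 4.13 for COX17, a copper chaperone of cytochrome oxidase, and 11.33 for TBL1X, a subunit of a nuclear corepressor complex, with a median of 6.87, against 2.40 to 14.60 and a median of 6.83 over all genes. Each array holds the RNA of a whole culture, so more RNA per cell and more cells of one kind cannot be told apart. The mean co-culture value exceeded the mean untreated value by a median of 0.71, which is 1.64-fold, against a median of -0.01 over all genes. The smallest difference was 1.41-fold and the largest 2.83-fold, and 9 members reached 2-fold. All 104 members were at or above the 40th percentile on 2 or more arrays, but 11 lay below it on both untreated arrays: DCAF12L2, LOC100289230, LINC01085, TAPT1-AS1, COL8A1, NME5, EPHA5, SPATA6, KANSL1L, COX17 and MAP2. At the threshold, LIPT2-AS1, ACACB and KHDC1 were just inside with gaps of 0.4043, 0.4031 and 0.4011, and MOB3B, SALL2 and SLC24A1 were just outside with 0.3999, 0.3957 and 0.3954.

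The gap in the other direction was less common. By the same margin of 0.4, 81 genes, or 0.41%, had their highest co-culture value below their lowest untreated value. With no margin, 2443 genes (12.4%) had all 7 co-culture arrays above both untreated arrays and 2040 (10.3%) had all 7 below.

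The widest gap belonged to SAMD12, a protein with a sterile alpha motif. SAMD12 had values of 6.53 and 6.55 for OB SostKO, 6.58 and 6.35 for OB WT + rhDKK1, 6.74, 6.37 and 6.12 for OB WT + rhSOST, and 4.70 and 5.23 for untreated PC3. The gap was 0.90 and the mean difference 1.5, which is 2.83-fold, and the untreated arrays themselves lay 0.53 apart. ZSCAN2, a zinc finger protein with a SCAN domain, had values of 7.22 and 7.17 for OB SostKO, 7.17 and 7.30 for OB WT + rhDKK1, 7.14, 7.27 and 7.21 for OB WT + rhSOST, and 6.21 and 6.25 for untreated PC3. Its 2 untreated values were almost equal and its 7 co-culture values stayed within 0.16, a pattern that the rule favors. The mean difference was 0.98, against 0.02 at its further probe set. UBE2QL1, which is related to ubiquitin-conjugating enzymes, measured 7.87 and 7.87 for OB SostKO, 7.93 and 7.94 for OB WT + rhDKK1, 7.87, 8.13 and 7.83 for OB WT + rhSOST, and 6.81 and 6.96 for untreated PC3. Here OB WT + rhSOST array 2 was the highest and the other co-culture arrays lay close together, and the mean difference was 1.03 (2.05-fold).

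ZNF14, a KRAB zinc finger repressor of chromosome 19, measured 7.83 and 7.85 for OB SostKO, 7.99 and 7.97 for OB WT + rhDKK1, 7.82, 8.03 and 7.80 for OB WT + rhSOST, and 6.73 and 6.93 for untreated PC3. The OB WT + rhDKK1 arrays and OB WT + rhSOST array 2 were its highest, and the difference was 1.07 (2.09-fold). GPR17, a G protein-coupled receptor best known from maturing oligodendrocytes, measured 7.16 and 7.17 for OB SostKO, 7.36 and 7.40 for OB WT + rhDKK1, 7.31, 7.34 and 7.34 for OB WT + rhSOST, and 6.10 and 6.33 for untreated PC3. Both OB SostKO arrays were lower than the other 5 co-culture arrays, and the overall difference was 1.08. LRATD1, a protein with an LRAT domain, was among the brighter members, at 9.58 and 9.80 for OB SostKO, 9.67 and 9.71 for OB WT + rhDKK1, 9.75, 9.86 and 9.72 for OB WT + rhSOST, and 8.48 and 8.76 for untreated PC3. Its co-culture groups overlapped, and the difference of 1.10 was 2.15-fold.

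The promoters of ZSCAN2, UBE2QL1, ZNF14, GPR17 and LRATD1 are printed from 250 bases before to 50 bases after the RefSeq start in GRCh38.p14, 5' to 3'. These genes had the widest gaps among members with a RefSeq promoter, when genes on the chromosome of SAMD12 were left out. Capitals mark CCAAT on either strand (ATTGG when read on the other), the box bound by NF-Y.
ZSCAN2, chr15:84600759-84601058, plus strand: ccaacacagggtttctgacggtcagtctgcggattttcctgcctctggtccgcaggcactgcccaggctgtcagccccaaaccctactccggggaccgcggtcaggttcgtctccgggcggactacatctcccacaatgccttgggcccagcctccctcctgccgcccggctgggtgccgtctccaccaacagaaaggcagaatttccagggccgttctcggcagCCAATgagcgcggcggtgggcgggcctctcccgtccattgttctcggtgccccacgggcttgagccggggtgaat
UBE2QL1, chr5:6448609-6448908, plus strand: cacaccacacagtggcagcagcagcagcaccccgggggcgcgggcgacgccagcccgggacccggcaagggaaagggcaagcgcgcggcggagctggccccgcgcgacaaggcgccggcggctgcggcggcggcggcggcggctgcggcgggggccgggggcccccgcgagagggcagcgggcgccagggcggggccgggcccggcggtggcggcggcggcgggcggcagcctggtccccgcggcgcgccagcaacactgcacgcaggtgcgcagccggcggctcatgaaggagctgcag
ZNF14, chr19:19733063-19733362, minus strand: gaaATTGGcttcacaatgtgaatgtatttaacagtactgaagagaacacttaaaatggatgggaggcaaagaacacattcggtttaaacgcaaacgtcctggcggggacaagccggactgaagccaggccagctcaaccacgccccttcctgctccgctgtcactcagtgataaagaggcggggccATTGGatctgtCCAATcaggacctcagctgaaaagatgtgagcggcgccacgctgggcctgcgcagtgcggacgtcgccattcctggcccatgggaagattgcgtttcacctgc
GPR17, chr2:127645903-127646202, plus strand: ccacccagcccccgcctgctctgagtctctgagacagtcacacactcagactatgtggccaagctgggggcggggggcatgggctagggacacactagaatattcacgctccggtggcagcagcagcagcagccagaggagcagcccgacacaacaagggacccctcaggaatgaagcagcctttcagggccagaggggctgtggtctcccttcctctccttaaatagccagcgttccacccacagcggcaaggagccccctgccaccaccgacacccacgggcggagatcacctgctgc
LRATD1, chr2:14632467-14632766, plus strand: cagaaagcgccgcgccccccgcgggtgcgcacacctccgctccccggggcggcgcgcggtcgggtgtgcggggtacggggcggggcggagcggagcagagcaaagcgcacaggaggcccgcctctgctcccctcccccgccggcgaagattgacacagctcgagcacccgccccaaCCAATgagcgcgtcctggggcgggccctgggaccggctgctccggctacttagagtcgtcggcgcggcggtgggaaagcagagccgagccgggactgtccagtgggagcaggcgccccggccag

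ZSCAN2 and LRATD1 had 1 CCAAT box each, ZNF14 had 3, and UBE2QL1 and GPR17 had none in this window. RefSeq promoters were matched for 87 of the 104 members and for 15382 measured genes. A CCAAT box stood in 36.8% of the member promoters and in 36.1% of all. The TCF/LEF motif CTTTGAT, searched on both strands like the rest, was found in 0 of 87 member promoters and in 1.91% of all. The forkhead motif TGTTTAC occurred in 2 member promoters (DENND2A and PHF3), or 2.3%, against 2.62% of all, and the AP-1 motif TGANTCA in 6 (BCHE, TNFSF15, SASH1, ZNF564, SLC2A12 and IL1RL1), or 6.9%, against 5.83%. The E-box CACGTG stood in 12.6% of member promoters and 8.9% of all, and the cyclic AMP response element TGACGTCA in 1.15% and 2.67%. The median GC content was 64.67% in member promoters and 63% in all. These counts describe letters in the printed window and say nothing of binding.

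GABBR2, the subunit of the GABA-B receptor that couples to G proteins, had the second largest difference of all members. GABBR2 measured 6.74 and 7.22 for OB SostKO, 6.84 and 6.66 for OB WT + rhDKK1, 7.13, 7.07 and 6.94 for OB WT + rhSOST, and 5.53 and 5.85 for untreated PC3. Its co-culture values spread over 0.56 and lay at least 0.81 above the untreated values, with a mean difference of 1.26 (2.39-fold). This difference rests on the brightest probe set. The further probe sets of GABBR2 differed by -0.05, 0.26 and 0.14, and the mean of all its probe sets by 0.40. DCAF12L2, a WD repeat protein related to substrate receptors of a ubiquitin ligase, had low values of 5.24 and 5.43 for OB SostKO, 5.36 and 5.35 for OB WT + rhDKK1, 5.18, 5.44 and 5.26 for OB WT + rhSOST, and 4.33 and 4.42 for untreated PC3. It was dim on every array, with a difference of 0.94. BCHE, butyrylcholinesterase, an enzyme that cleaves choline esters, measured 6.34 and 6.66 for OB SostKO, 6.55 and 6.56 for OB WT + rhDKK1, 6.46, 6.45 and 6.42 for OB WT + rhSOST, and 5.58 and 5.59 for untreated PC3. Its untreated values were nearly equal, and the difference to co-culture was 0.91 (1.87-fold).

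BCL6, a zinc finger repressor known from germinal center B cells and from FOXO signaling, measured 8.76 and 9.0 for OB SostKO, 8.83 and 8.81 for OB WT + rhDKK1, 8.82, 8.93 and 8.91 for OB WT + rhSOST, and 7.86 and 8.01 for untreated PC3. The 3 co-culture groups overlapped, and the difference was 0.93 (1.9-fold). USP6NL, a GTPase-activating protein for RAB5, measured 7.35 and 7.60 for OB SostKO, 7.58 and 7.61 for OB WT + rhDKK1, 7.43, 7.57 and 7.29 for OB WT + rhSOST, and 6.56 and 6.48 for untreated PC3. OB WT + rhSOST array 3 and OB SostKO array 1 were its lowest co-culture arrays, and the difference was 0.97. LOC100289230, a long noncoding RNA, measured 5.12 and 5.58 for OB SostKO, 5.32 and 5.39 for OB WT + rhDKK1, 5.22, 5.19 and 5.12 for OB WT + rhSOST, and 4.19 and 4.39 for untreated PC3. It was dim in untreated cells, and its difference was 0.99.

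PRRC1, a protein of the early secretory pathway, was the brightest of the 15, at 10.73 and 10.92 for OB SostKO, 10.90 and 10.98 for OB WT + rhDKK1, 10.82, 11.06 and 10.84 for OB WT + rhSOST, and 10.03 and 9.87 for untreated PC3. Its difference was 0.94 (1.92-fold). PRKD1, protein kinase D1, a kinase downstream of diacylglycerol and protein kinase C, measured 5.68 and 5.73 for OB SostKO, 5.95 and 5.76 for OB WT + rhDKK1, 5.68, 5.80 and 5.68 for OB WT + rhSOST, and 4.98 and 4.67 for untreated PC3. OB WT + rhDKK1 array 1 was the highest, the untreated arrays lay 0.31 apart, and the difference was 0.93. TNFSF15, the TNF family cytokine TL1A, measured 6.87 and 7.09 for OB SostKO, 6.90 and 6.99 for OB WT + rhDKK1, 7.02, 7.14 and 7.19 for OB WT + rhSOST, and 6.18 and 6.14 for untreated PC3. The OB WT + rhSOST arrays reached furthest up, and the mean difference was 0.87 (1.83-fold).

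**Figure D2:**
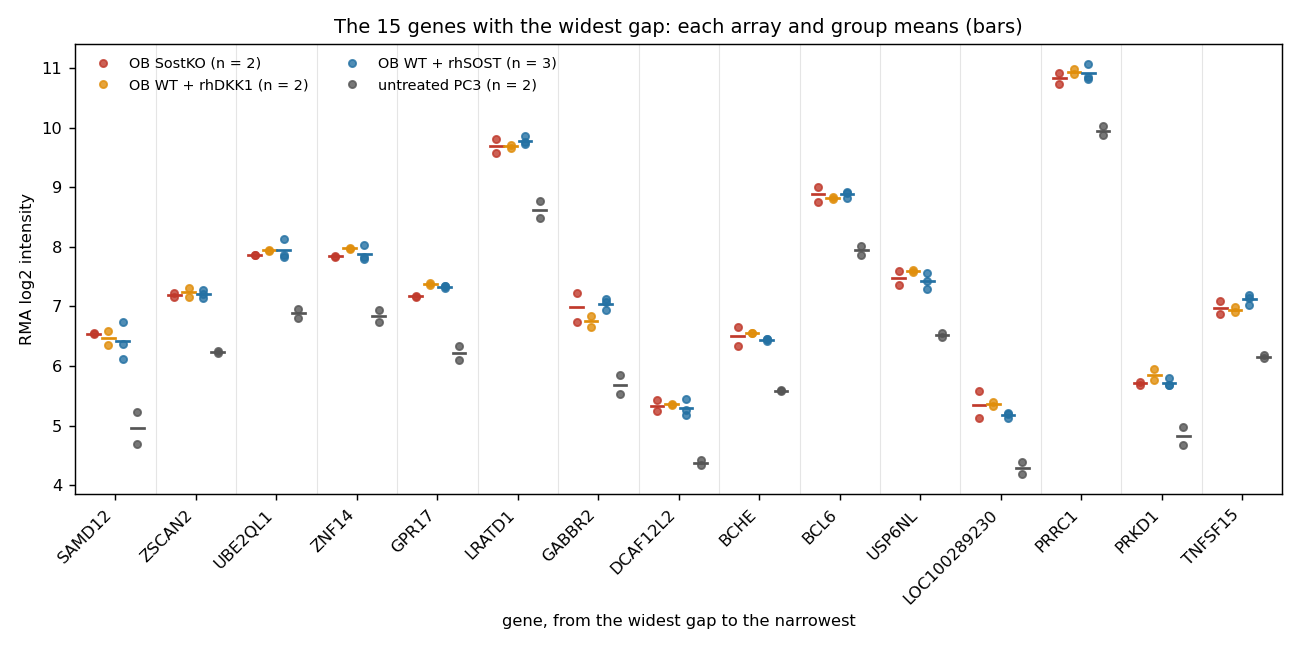
RMA log2 intensity of the 15 members with the widest gaps, with a point for each array, a bar for the mean of each group, and OB SostKO, OB WT + rhDKK1, OB WT + rhSOST and untreated PC3 from left to right for each gene. All co-culture points lie above the untreated points of the gene, with gaps of 0.69 to 0.90.

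Zinc finger transcription factors were the most numerous role, with 17 members. Their differences ran between 0.55 for ZNF606 and 1.07 for ZNF14, with a median of 0.73, and their untreated means between 5.84 and 9.33. Besides ZNF14, the symbols ZNF248, ZNF420, ZNF564, ZNF112, ZNF627, ZNF709, ZNF557, ZNF182, ZNF823 and ZNF606 belong to the KRAB family of repressors, and the role also held ZNF711, ZNF862 and ZXDA. ZNF248 was the brightest of the 17, at 9.995 to 10.41 in co-culture and 9.29 and 9.36 in untreated cells. BCL6 is described above, and OSR1, a regulator of kidney and limb development, lay at 6.80 to 7.19 in co-culture and 6.33 and 6.27 in untreated cells. ZNF420, ZNF112 and ZNF627 were read by probe sets that can bind several transcripts, and ZXDA has a near-identical copy, ZXDB, so the source of their signal is uncertain.

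Zinc finger genes were also counted by name, over the 550 measured genes whose symbols begin with ZNF, ZSCAN, ZKSCAN or ZFP. This set holds 52 entries that RefSeq does not annotate as protein-coding, such as antisense RNAs and pseudogenes, and the ZFP36 genes of another zinc finger type, and it leaves out the members BCL6, OSR1 and ZXDA. Of these, 14 were members, or 2.55%, against 0.561% of all genes. All 7 co-culture arrays lay above both untreated arrays for 129 of the 550 (23.5%, against 12.4% of all genes) and below both for 25 (4.55%, against 10.3%). After cyclic loess scaling these shares were 21.6% above and 6.18% below for this set, and 11.7% and 11.6% for all genes. On chromosome 19, where KRAB genes stand in clusters, 61 of 244 such genes (25.0%) lay above, and on the other chromosomes 68 of 306 (22.2%). The neighbors ZNF564 and ZNF709, and likewise ZNF627 and ZNF823, were members with no protein-coding gene between them. These shares use the contrast that chose the members and come without a test.

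Further nuclear proteins and RNA-binding proteins gave 13 members, with differences of 0.49 to 0.85 and a median of 0.68. TBL1X, a subunit of the NCoR corepressor that also binds beta-catenin, was the brightest member of all, at 11.99 to 12.24 in co-culture and 11.35 and 11.32 in untreated cells, a difference of 0.80. SATB1, which organizes chromatin loops, had the largest difference of the 13, 0.85, and FOXA2, a forkhead pioneer factor of endoderm, had 0.81. MAML2, a coactivator of Notch, differed by 0.72, ING5, a reader of methylated histone H3, by 0.67, and PHF3, which binds RNA polymerase II, by 0.61. ERCC6, a protein of transcription-coupled DNA repair, had the smallest, 0.49. The others were KANSL1L, a relative of a subunit of a histone acetyltransferase complex, RSBN1, GPATCH2, the RNA methyltransferase relative NSUN7, the double-stranded RNA-binding protein STAU2 and the KH domain protein KHDC1.

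Receptors, ligands and secreted proteins gave 11 members, with differences of 0.53 to 1.26 and a median of 0.69. After GABBR2, GPR17 and TNFSF15, the largest belonged to EPHA5, a receptor for ephrins, with 0.79 at a low level of 5.13 to 5.57 in co-culture. RELN, the secreted guidance protein reelin, lay at 9.13 to 9.31 in co-culture and 8.54 and 8.41 in untreated cells. SEMA3F, a secreted semaphorin that repels axons and endothelial cells, lay at 10.52 to 10.72 in co-culture and 10.03 and 9.91 in untreated cells. TGFBR3, the TGF-beta coreceptor betaglycan, differed by 0.67, and SHISA3, which holds Wnt and FGF receptors back in the endoplasmic reticulum, by 0.65. C5, a complement component, differed by 0.64, and GPRASP3, which binds G protein-coupled receptors, by 0.61. IL1RL1, the receptor of interleukin-33, had the smallest of the 11, 0.53, with 8.91 to 9.06 in co-culture and 8.44 and 8.46 in untreated cells.

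Intracellular signaling and the cell cycle gave 12 members, with a median difference of 0.78, the highest of any role. Small GTPases and their regulators were USP6NL, DENND2A (0.96), an exchange factor for RAB9, DOCK11 (0.89), an exchange factor for CDC42, and DNAJC27 (0.66). CNKSR2, a scaffold of the RAS pathway, differed by 0.89, and SASH1, a scaffold of Toll-like receptor signaling, by 0.67. RGS2, which shortens signaling by Gq proteins, was tightly set on every array, at 10.96 to 11.07 in co-culture and 10.36 and 10.32 in untreated cells. MCC, a protein mutated in colorectal cancer that binds beta-catenin, differed by 0.89, NXN, a redox protein that binds Dishevelled, by 0.66, and CDK14, a kinase that phosphorylates LRP6, by 0.54. CDKN1C, the cyclin-dependent kinase inhibitor p57, differed by 0.64, at 8.21 to 8.47 in co-culture and 7.64 to 7.73 in untreated cells.

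Conjugation of ubiquitin and its relatives gave 9 members, with differences of 0.53 to 1.03. After UBE2QL1 and DCAF12L2, LNX1, a ligase for NUMB, differed by 0.88, NEURL1B, a ligase for Notch ligands, by 0.73, and HERC5, the ligase for the interferon-induced modifier ISG15, by 0.69. SH3RF3 differed by 0.64, FEM1B, a receptor of a cullin ligase, by 0.59, FBXL7, an F-box protein, by 0.58, and CBLL1, the E-cadherin ligase Hakai, by 0.53.

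Extracellular matrix and glycans gave 6 members. CSGALNACT1, which starts chondroitin sulfate chains, had one of the largest differences of all, 1.17, at 6.63 to 7.23 in co-culture and 5.82 to 6.01 in untreated cells. VCAN, the chondroitin sulfate proteoglycan versican, differed by 0.61. COL8A1, a short-chain collagen, differed by 0.91 at a low level, and ABI3BP, a matrix protein, had the smallest difference of all 104 members, 0.49, with 9.79 to 10.01 in co-culture and 9.38 on both untreated arrays. MGAT5, which branches N-glycans, differed by 0.54, and ADAM21, a membrane metalloprotease relative, by 0.65.

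Enzymes and lipid-binding proteins gave 12 members with a median difference of 0.66. TMT1A, a thiol methyltransferase, differed by 1.17 (2.24-fold), at 6.0 to 6.71 in co-culture and 5.13 to 5.35 in untreated cells. ALDH6A1, of valine breakdown, and ALDH5A1, the last enzyme of GABA breakdown, differed by 0.67 and 0.63. NNMT, which methylates nicotinamide, differed by 0.63, DHRS2, a mitochondrial dehydrogenase, by 0.72, and ENTPD3, an ectonucleotidase, by 0.75. NME5 (0.77), NUDT11 (0.62), COX17 (0.66), the oxysterol-binding relative OSBPL6 (0.55) and ACACB, the acetyl-CoA carboxylase of mitochondria (0.52), completed the role with BCHE. NUDT11 has a near-identical copy, NUDT10, which its probe set may also read. Transporters and channels were the iron exporter ferroportin SLC40A1 (0.72), the glucose transporter SLC2A12 (0.70) and the potassium channel KCNU1 (0.90).

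Proteins of the cytoskeleton, cilia and synapses gave 8 members, with differences of 0.59 to 0.97. MCTP1, a calcium-binding membrane protein, had the largest, 0.97, and PHACTR3, which binds actin and protein phosphatase 1, had 0.91, at 8.99 to 9.52 in co-culture and 8.26 to 8.39 in untreated cells. SPATA6 differed by 0.84, CIBAR1, a protein of the ciliary base, by 0.74, SHROOM2, an actin-binding protein, by 0.73, PCLO, a scaffold of presynaptic terminals, by 0.67, MAP2, a neuronal microtubule-associated protein, by 0.66, and IVNS1ABP, a kelch protein that binds actin, by 0.59. The 6 noncoding members were LINC01085 (1.06), LOC100289230 (0.99), TAPT1-AS1 (0.83), IDH1-AS1 (0.61), LIPT2-AS1 (0.54) and LOC100506730 (0.49). The remaining members were SAMD12, LRATD1, PRRC1, FAM53A (0.72), NOMO3 (0.71), FAM117B (0.62) and FAM120C (0.52), and NOMO3 has near-identical copies that its probe set cannot be assumed to separate.

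**Figure D3:**
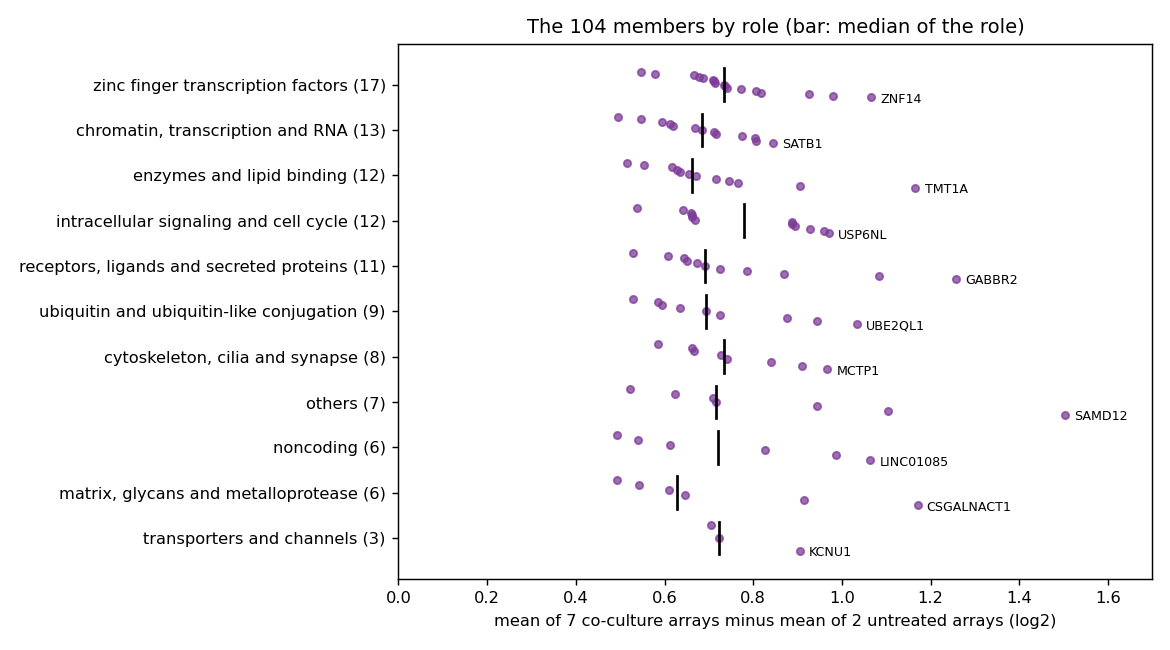
Mean of the 7 co-culture arrays minus mean of the 2 untreated arrays (log2) for each of the 104 members, grouped by role, with a bar at the median of the role and the name of its largest member. The medians of the roles lie between 0.63 and 0.78, and SAMD12 stands furthest right at 1.5.

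By chromosome, 11 members (10.6%) lay on X, against 3.52% of all genes: TBL1X, DCAF12L2, CNKSR2, DOCK11, ZNF711, SHROOM2, GPRASP3, NUDT11, ZXDA, ZNF182 and FAM120C. Of all 696 genes measured on X, 14.7% had every co-culture array above both untreated arrays and 7.18% had every one below, against 12.4% and 10.3% of all genes. TBL1X and SHROOM2 are neighbors with 1 protein-coding gene, GPR143, between them, whose difference was 0.31. Chromosome 19 held 9 members (8.65%, against 6.68% of all genes), all of them zinc finger genes.

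Other probe sets of the same genes gave another reading of the same RNA. Of the 104 members, 74 had at least 1 further probe set and together they had 148. The co-culture mean was above the untreated mean at 112 of the 148, with a median difference of 0.18, and at the 100 brighter ones, at or above the 40th percentile on 2 or more arrays, the median was 0.27. All 7 co-culture arrays lay above both untreated arrays at 47 of the 148, in 38 members, against 9.45% of the further probe sets of all genes, and below both at 4, against 8.7%. The gap of 0.4 was met at 7, in 6 members, against 0.403% of the further probe sets of all genes. The further probe sets share RNA and arrays with the ones that chose the members, so these counts carry no test.

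LRATD1 showed the widest further gap. One of its further probe sets lay at 7.57 to 7.81 in co-culture and 5.94 to 6.04 in untreated cells, a difference of 1.71, while others of the same gene differed by -0.11 and -0.31. TNFSF15 lay at 5.54 to 6.09 in co-culture and 4.29 to 4.35 in untreated cells at its further probe set, a difference of 1.5. DENND2A met the gap at all 3 of its probe sets, with differences of 0.79 and 1.02 at the further ones. The remaining ones were ZNF420 with 1.2, ALDH6A1 with 1.01 and OSBPL6 with 0.62. At 12 of the 74 members every further probe set lay below 0, so the differences given for these genes rest on the brightest probe set. They were FEM1B, with -0.26 and -0.10, TMT1A, with -0.04, -0.13 and -0.20, and 10 members with a single further probe set: FAM53A (-0.16), CBLL1 (-0.15), ZNF627 (-0.14), NSUN7 (-0.10), PRKD1 (-0.081), SAMD12 (-0.056), ZNF862 (-0.048), ZNF606 (-0.042), CSGALNACT1 (-0.034) and SLC2A12 (-0.014). The further probe sets of 5 of the 12 were dim, below the 40th percentile on most arrays, among them those of SAMD12, PRKD1 and CSGALNACT1. Other members had further probe sets above 0 that changed little. These included ZSCAN2 (0.02 against 0.98 at the brightest), PRRC1 (0.02 against 0.94), USP6NL (0.11 and 0.14 against 0.97) and BCL6 (0.17 and 0.17 against 0.93). GPR17 had 0.22 against 1.08. ING5 had 0.06, 0.15, -0.22 and -0.11 against 0.67. At its probe set with -0.22, every co-culture array lay below both untreated arrays. The differences given for these genes also rest on the brightest probe set. UBE2QL1 had 0.51 against 1.03.

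**Figure D4:**
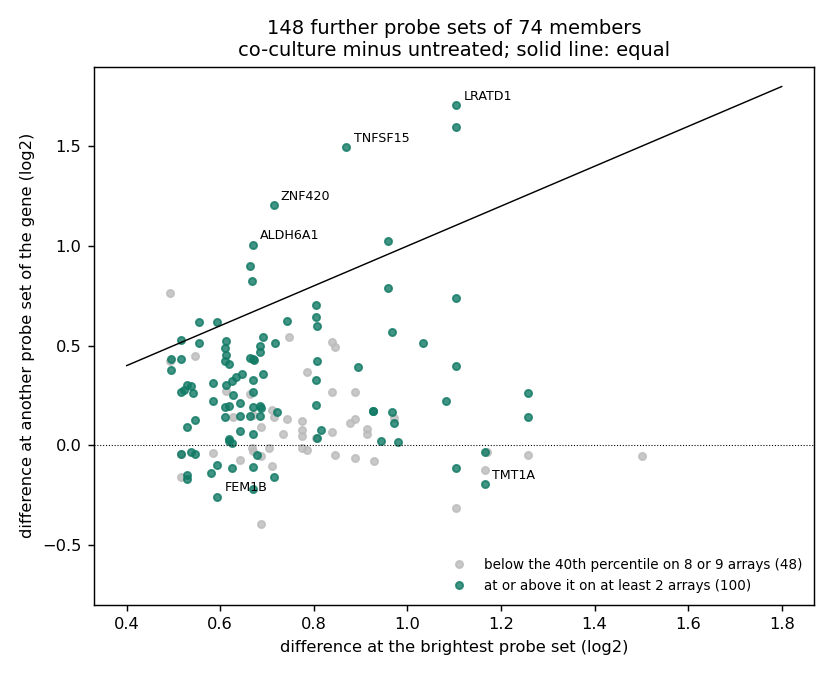
Co-culture minus untreated difference (log2) at the brightest probe set of 74 members (x axis) against that at each of their 148 further probe sets (y axis), with probe sets under the 40th percentile in gray. Most points lie below the line of equality, and 112 lie above 0. Points above the line include some of LRATD1, TNFSF15, ZNF420 and ALDH6A1, and of other members such as DENND2A and ABI3BP.

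The direct comparisons of the co-cultures were fitted over all genes. The rule did not set one co-culture against another, but it used the lowest of the co-culture values and so left out genes that were low in any of the groups, and the members' differences between co-cultures are therefore not independent of it. With limma over 14863 genes and Benjamini-Hochberg adjustment, no gene and no member passed an adjusted p of 0.05 in any of the 3 comparisons (0.0% of genes in each). The members' differences between co-cultures were also small, and their 95% confidence intervals reached a median of 0.21 to 0.23 to either side. No bound of any member lay beyond -0.71 or 0.61. The labels do not say whether replicates came from separate osteoblast isolations, so the p-values measure the spread between these arrays.

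In OB SostKO against OB WT + rhSOST, 5 members (4.81%) had an unadjusted p under 0.05, all of them lower with OB SostKO, against 4.08% of all genes (0.532% higher and 3.55% lower). The members' differences ran between -0.28 and 0.17 with a median of -0.05, against -0.03 over all genes, and 77 of the 104 (74.0%) were lower with OB SostKO, against 61.4% of all genes. COX17 averaged 4.66 with OB SostKO and 4.91 with OB WT + rhSOST, a difference of -0.25 ± 0.09 (SE, limma adjusted p = 0.800). SPATA6 averaged 5.08 and 5.36, a difference of -0.28 ± 0.10, and ZNF182 averaged 6.49 and 6.76, a difference of -0.27 ± 0.10, with the same adjusted p. None of these held up after adjustment.

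In OB WT + rhDKK1 against OB WT + rhSOST, 2 members (1.92%) had an unadjusted p under 0.05, against 2.57% of all genes (0.37% higher and 2.2% lower), and both were lower with rhDKK1. MAP2 averaged 4.85 with rhDKK1 and 5.15 with rhSOST (difference -0.30 ± 0.11, SE, limma adjusted p = 1.0), and CNKSR2 averaged 6.10 and 6.32 (-0.22 ± 0.09). COX17 was the third by p, with 4.72 and 4.91 (-0.19 ± 0.09). The differences of all members ran between -0.32 and 0.18, with a median of -0.03, the same as over all genes. In OB SostKO against OB WT + rhDKK1, 2 members (1.92%) had an unadjusted p under 0.05, against 0.828% of all genes (0.491% higher and 0.336% lower), and both were lower with OB SostKO. These were the noncoding LINC01085, with 5.38 with OB SostKO and 5.68 with OB WT + rhDKK1 (-0.29 ± 0.11, SE, limma adjusted p = 1.0), and GPR17, with 7.17 and 7.38 (-0.21 ± 0.09). NUDT11 came next, with 7.99 and 8.16 (-0.17 ± 0.08), and the differences of all members ran between -0.29 and 0.23, with a median of -0.02.

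**Figure D5:**
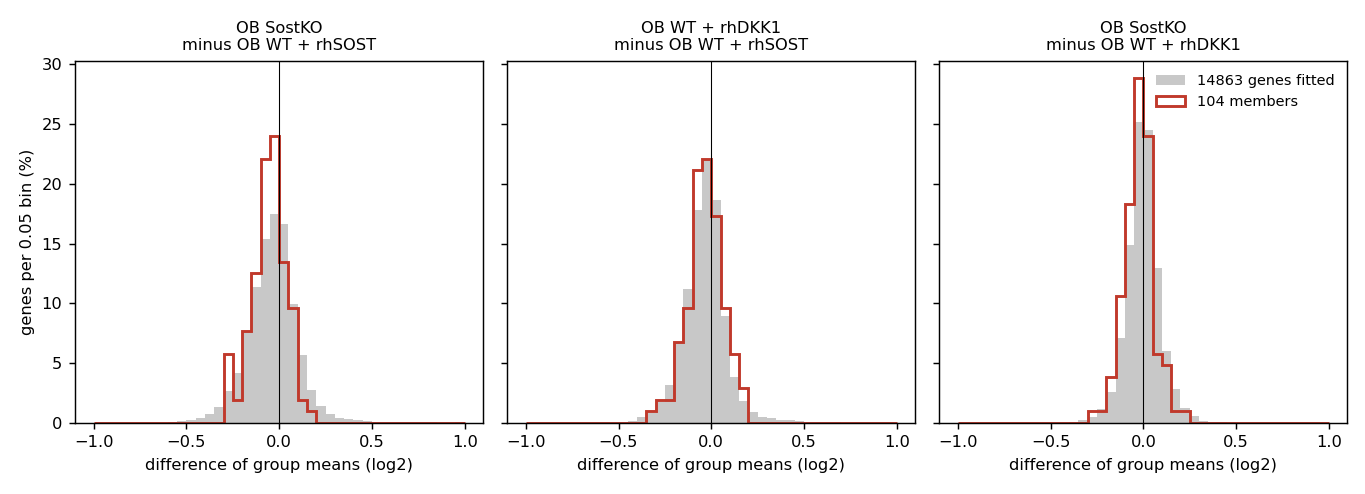
Difference of group means (log2, x axis) for the 104 members (red outline) and the 14863 genes fitted (gray), as the percentage of genes per bin of 0.05, for each direct comparison of co-cultures. The members center near 0 in each panel, with medians of -0.05, -0.03 and -0.02, and their lowest value in any panel is -0.32.

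The rule favors genes with little spread over the co-culture arrays, so the members' spread is a description. The SD over these 7 arrays had a median of 0.093 for the members and of 0.106 for all genes, against 0.109 for the 15064 genes within the members' range of untreated means. The median member lay above the mean of the untreated arrays by 0.64 and 0.71 with OB SostKO, by 0.72 and 0.67 with OB WT + rhDKK1, and by 0.71, 0.78 and 0.73 with OB WT + rhSOST, all against the same 2 untreated arrays. OB SostKO array 1 was the lowest co-culture array for 46 of the 104 members and OB WT + rhSOST array 3 for 16, while OB WT + rhSOST array 2 was the lowest for none and the highest for 34. The 2 untreated arrays differed by a median of 0.10 at the members.

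Lists of related genes placed single members beside their pathway. In these lists a gene was called at a limma adjusted p under 0.05 for the mean of the 3 co-culture groups minus untreated PC3, which called 6.55% of 14863 genes higher and 4.03% lower. Members were selected on this contrast, so their own calls add nothing and were left out of the counts. Besides the member CSGALNACT1, 20 genes of chondroitin sulfate synthesis were tested, of which 2 were higher and 0 lower: the xylosyltransferase XYLT2 (difference 0.45 ± 0.11, SE, adjusted p = 0.0316) and CHST15. The median over the 22 measured was -0.03. Besides the member GABBR2, none of 6 tested genes of GABA-B receptors and their partners was called. The partner subunit GABBR1 averaged 6.81 ± 0.32 in co-culture (SD, n = 7) and 7.04 ± 0.11 in untreated cells (SD, n = 2).

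Besides the member ZNF14, 16 genes of a partial list of chromosome 19p KRAB zinc finger genes were tested. Of these, 2 were higher, ZNF738 (0.55 ± 0.10, limma adjusted p = 0.0109) and ZNF708 (0.55 ± 0.10, limma adjusted p = 0.0110), and 1, ZNF93, was lower. The median over the 26 measured was 0.07. Of the 9 members on chromosome 19 this list holds only ZNF14, and it leaves out ZNF564, ZNF709, ZNF627, ZNF823 and ZNF557, among others. Over all 244 zinc finger symbols of chromosome 19 the median difference was 0.10. Besides the members TMT1A and LRATD1, 7 thiol methyltransferase and LRAT domain genes were tested, of which none was higher and 1, TMT1B, the closest relative of TMT1A, was lower (-0.28 ± 0.07, limma adjusted p = 0.0434). Besides the member BCL6, 21 FOXO and quiescence genes were tested, of which 3 were higher, CCNG2, an atypical cyclin (0.66 ± 0.11), TXNIP, an inhibitor of thioredoxin (0.44 ± 0.06), and INSR, the insulin receptor, and 1, BTG1, was lower. The median over the 23 measured was 0.14.

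Of 17 tested Wnt/beta-catenin target genes, none was higher and 4 were lower: NKD1, BMP4, MYC (-0.43 ± 0.07, limma adjusted p = 0.00628) and PPARD (-0.53 ± 0.07, limma adjusted p = 0.00382). The median over the 19 measured was -0.13, and no member was on this list. Of 24 cell cycle genes, AURKA, a mitotic kinase, and MCM2, a subunit of the replicative helicase, were higher, none was lower, and the median was 0.10. The other cell types' lists held no member either. Of 13 tested osteoblast and fibroblast markers, COL3A1 (0.33 ± 0.07) and CDH11 (0.41 ± 0.06) were higher and FBN1 (-0.76 ± 0.09) was lower. KRT7 and ELF3 of 10 epithelial markers and STEAP2 of 6 prostate luminal markers were lower, and neither of 2 tested osteoclast and macrophage markers was called.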

How the data were processed

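Total RNA of PC3 cells carried a biotin label and was read on Affymetrix U133 Plus 2.0 arrays. RMA is the method that the submitters' processing notes give for the log2 values the authors deposited, and the software and its version are not given in the sources used here. RMA equalizes the distributions of the arrays, so differences are relative to the bulk of probe sets. Groups and replicate numbers came from the sample labels. Of 54675 probe sets, 62 were controls, 41091 carried 1 gene symbol, 1801 several and 11721 none in the platform annotation used here, and only those with 1 symbol were used, under current RefSeq names.

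The members, the gene lists and the tests were chosen with earlier results of these data known. Counts and differences of the members were computed in Python 3.11.15. The direct comparisons of the co-cultures were fitted with lmFit and eBayes of limma 3.58.1 in R 4.3.3, with 4 group means, on 14863 genes at or above the 40th percentile on 2 or more arrays (brightest such probe set), with Benjamini-Hochberg adjustment over all of them. The same fit gave the contrast of the mean of the 3 co-culture groups with untreated PC3 for the lists, which was added after the data had been seen. The fit was tested on simulated data. All values are limited by 2 or 3 arrays per group.

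All 9 values were given for the 15 members with the widest gaps, the other members were named by role, and 3 genes on either side of the threshold, the 3 members with the smallest p in each direct comparison and up to 3 genes of each list with the largest differences were named. Genes that complete a count, the neighbors on a chromosome and the genes with further probe sets were named after their values had been seen. The alternatives were other gaps, filters and probe sets, cyclic loess, leaving out each array, a replicate block, and the tests of the paper's general methods, ANOVA with Tukey comparisons and a paired t-test. A reference genome was not used, and promoter sequences are those of RefSeq for GRCh38.p14.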

Additional observations from a re-analysis of the deposited data

How the results depend on the processing

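The number of genes that met the rule, not counting the 10 described elsewhere, was 104 and depended on its settings. It was 222 at a gap of 0.3, 54 at a gap of 0.5, 49 with the mean of all probe sets of a gene (41 of them members) and 181 when any probe set of a gene could meet the rule. Cyclic loess gave 91, of which 89 were members. Without probe sets named _s_at, _x_at or _a_at, an alternative chosen after seeing the data, there were 102, of which 85 were members. Leaving out each array gave 103 to 295, with 195 without untreated PC3 array 1, 295 without untreated PC3 array 2 and 160 without OB WT + rhSOST array 3, since fewer arrays have to meet the rule. The median difference of the members, 0.71, was 0.50 with the mean of all probe sets, 0.19 at the mean of the other probe sets of the 74 members that have any (also chosen after seeing the data), and 0.68 to 0.72 with each array left out. Of 191 values of the 15 members given array by array, 159 moved by less than the SD over the co-culture arrays and 2 changed sign: SAMD12 and PRKD1 had -0.056 and -0.081 at the mean of their other probe sets. The cause was not tested.

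The direct comparisons called 0 genes by limma under every filter, scaling and left-out array that was run (0 to 0). Same-numbered arrays did not deviate together throughout (correlations of -0.57 for OB SostKO and OB WT + rhDKK1, and of 0.27 and 0.31 for OB WT + rhDKK1 and OB WT + rhSOST), so the numbers do not pair the arrays, and the replicate block also called 0 genes in each comparison. Crossing the rhDKK1 numbers in the block against OB SostKO gave 0. ANOVA with Tukey comparisons gave 129, 83 and 42 genes at an unadjusted p under 0.05 for OB SostKO against OB WT + rhSOST, OB WT + rhDKK1 against OB WT + rhSOST and OB SostKO against OB WT + rhDKK1, and 0 after Benjamini-Hochberg adjustment. The methods' paired t-test gave 480, 683 and 326 at an unadjusted p under 0.05, and 0 after adjustment. It paired arrays by their numbers, which do not pair them, and left out OB WT + rhSOST array 3. The counts of both tests are out of 14863 genes. The number of arrays limits all of these values.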
